A study of Bos taurus with 8 samples.

Results

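The genes described here are the fatty acid-binding proteins FABP1 to FABP5, the acyl-CoA-binding protein DBI, the fatty acid translocase CD36, the fatty acid transport protein SLC27A4 and the acyl-CoA synthetase ACSL5, which together bring fatty acids into cells of the gut. They were taken by symbol from the deposited jejunal values, and all 9 were found, out of 17932 genes in the table. The 9 genes were selected on their measured TPM in these same libraries and on the difference between the diets, so both are given as a description, with no test. Jejunal tissue came from 4 calves of the DCLI group and from 4 calves of the CON group. DCLI calves received a postbiotic of heat-inactivated Lactobacillus ingluviei CR37 daily (1 g per calf) in milk replacer. The paper names this strain Limosilactobacillus ingluviei C37. CON calves ate the same diet without the postbiotic. All 8 were Holstein bull calves that entered the trial within days of birth, with 7 calves per group, and 4 per group were chosen at random for sampling on day 90. All calves received milk replacer, had starter on offer from day 33, had their milk halved on day 82 and were weaned by day 89. One RNA-seq library was made per calf, named DCLI1 to DCLI4 and CON1 to CON4 here, and error values reflect variation among calves.

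Fatty acids released from dietary fat reach the brush border of enterocytes, the absorptive cells of the villus. At the membrane, CD36 and SLC27A4 promote their entry, and acyl-CoA synthetases such as ACSL5 join them to coenzyme A so that they stay in the cell and can be rebuilt into triacylglycerol. In the cytosol, fatty acids are held by small fatty acid-binding proteins and acyl-CoA by DBI. In mammals generally, FABP1 is known from liver and the upper small intestine, FABP2 from enterocytes along the small intestine, FABP3 from heart and muscle, FABP4 from fat cells and FABP5 from skin and many other tissues. FABP6, which carries bile acids in the ileum, belongs to the same family.

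The values are TPM (the share of a library's transcripts that a gene holds, corrected for transcript length and scaled to a fixed total), so levels can be compared between genes. DCLI libraries held 12872 to 13247 genes at 1 TPM or more, and CON libraries 12825 to 13552. TPM does not carry read depth, though the study reported similar numbers of clean reads for all libraries. Counting error per gene was not estimated. All 12 enterocyte markers were found, with a summed TPM of 6228 to 8342 in DCLI and of 6081 to 7918 in CON1 to CON3, but 942 in CON4. That sum is led by ANPEP, KRT20 and VIL1. The mean log2(TPM + 1) of the 12 markers, in which each gene weighs the same, was 7.65 to 8.26 in DCLI, against 6.84 in CON1, 7.82 in CON2, 6.44 in CON3 and 4.23 in CON4, so CON1 and CON3 were below every DCLI calf as well. CON4 stood apart in other ways as well. The 6 B cell markers summed to 12.2 to 33.7 in DCLI, to 14.4 to 33.9 in CON1 to CON3 and to 3088 in CON4. The 7 general epithelial markers summed to 2924 to 3643 in DCLI, to 3067 to 4961 in CON1 to CON3 and to 765 in CON4. In bulk tissue, fewer cells of a type and less RNA per cell cannot be told apart. The sums of the other cell types overlapped between the groups. In DCLI and CON, they were 1088 to 4013 and 1728 to 10345 for 6 smooth muscle markers, 70.7 to 98.4 and 48.3 to 131 for 8 endothelial markers, 338 to 1025 and 528 to 894 for 8 macrophage markers, and 441 to 1639 and 382 to 2226 for 5 plasma cell markers. Taken singly, all 6 smooth muscle markers had a lower mean log2(TPM + 1) in DCLI, each with overlap between the groups. Their median difference was -0.99 (-1.36 without CON4), beside -0.06 over all genes tested. Of 7 macrophage markers tested, 6 were lower, with a median of -0.32 (-0.23 without CON4). The extraction label names liver, yet the 6 liver markers summed to only 10.9 to 51.0 in DCLI and 4.89 to 60.7 in CON.

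FABP1 was the member that differed most between the diets. DCLI1 to DCLI4 had 12277, 3733, 145 and 5226 TPM, against 14.2, 82.3 and 4.22 TPM in CON1 to CON3 and a listed 0 in CON4. Every DCLI calf was above every CON calf, but the margin was narrow between DCLI3 and CON2 and very wide between the other calves. Within DCLI alone the values ranged from that of DCLI3 to that of DCLI1, and FABP1 was the 6th most abundant gene in DCLI1 and the 847th in DCLI3. The mean was 5346 ± 5090 in DCLI and 25.2 ± 38.6 in CON (SD, n = 4 each), a log2 ratio of means of 7.73 (jackknife standard error 1.94). On the log2(TPM + 1) scale, which compresses low values, the difference was 8.08 (standard error 1.59), and it was 7.02 (standard error 1.49) without CON4. It was 5.88 (standard error 1.59) with array weights and 6.4 (standard error 0.82) relative to the mean of the enterocyte markers. Array weights count a library less the further it deviates from its group mean over the genes, and hold no measure of sequencing quality. Over all genes tested, the groups did not overlap, with DCLI higher, in 2.28%. Among the members this was the case for FABP1 and DBI.

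FABP2, the most abundant member in all libraries but DCLI1, did not separate the diets in the same way. Its TPM was 11320, 21045, 19134 and 13977 in DCLI1 to DCLI4, against 4239, 19800, 3939 and 350 in CON1 to CON4. CON2 lay within the DCLI range, above DCLI1, DCLI3 and DCLI4, while the other CON calves lay below all DCLI calves. FABP2 was among the 7 most abundant genes in every DCLI calf, whereas its rank was 27, 3, 31 and 320 in CON1 to CON4. The mean TPM was 16369 ± 4499 in DCLI and 7082 ± 8661 in CON (SD, n = 4 each), so the spread was far wider in CON. On the log2(TPM + 1) scale FABP2 differed by 2.28 (standard error 1.02), by 1.2 (standard error 0.56) without CON4 and by 0.35 (standard error 0.57) with array weights.

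**Figure D1:**
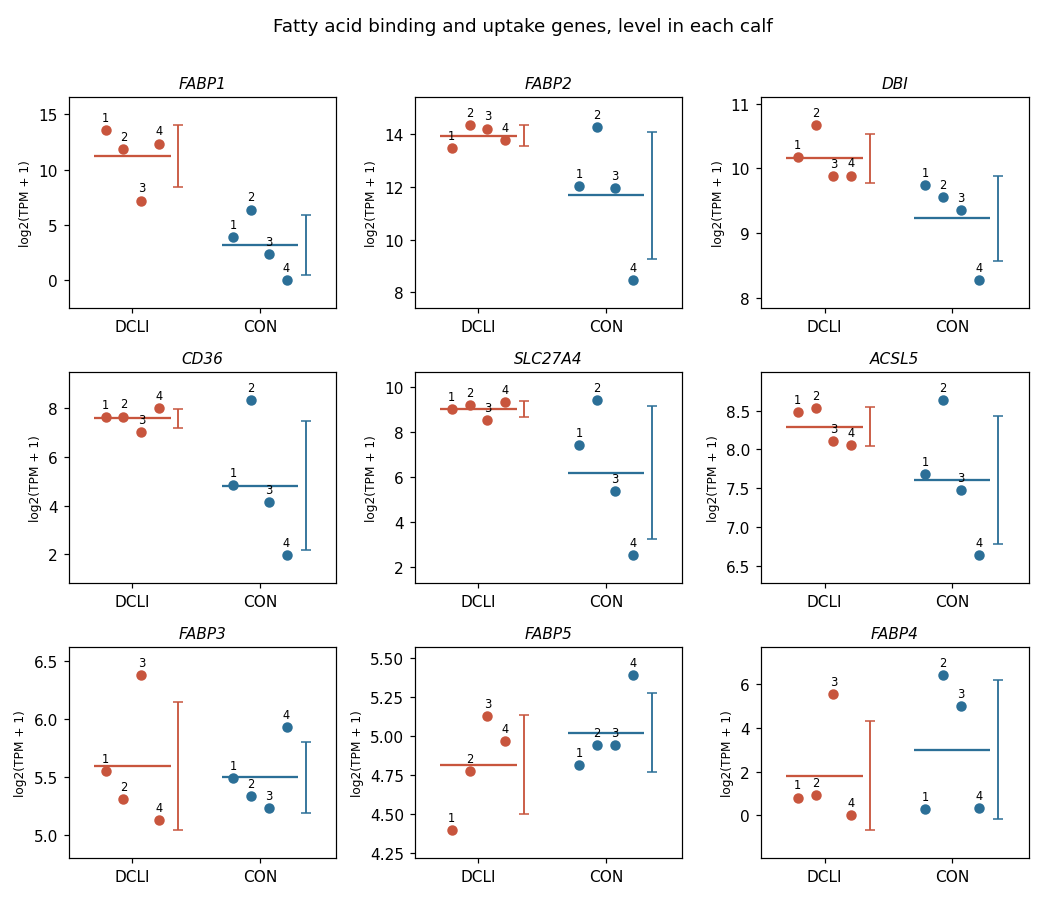
Level of each of the 9 genes in each calf, as log2(TPM + 1), with DCLI left of CON in each panel. Numbers are the calf numbers, horizontal lines group means and vertical bars 1 SD on either side of the mean (n = 4 each). FABP1 and DBI do not overlap between the groups, CON2 reaches the DCLI level for FABP2, CD36, SLC27A4 and ACSL5, and CON4 is the lowest calf for FABP1, FABP2, DBI, CD36, SLC27A4 and ACSL5.

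The proportions of the 2 abundant binding proteins differed between calves as well. The TPM of FABP1 over that of FABP2 was 1.08, 0.177, 0.00757 and 0.374 in DCLI1 to DCLI4. In CON1 to CON3 this ratio was 0.00334, 0.00416 and 0.00107, and in CON4 FABP1 was listed at 0. DCLI3 therefore stood closer to CON1 to CON3 than to the other DCLI calves in this ratio, while it had the second highest FABP2 in its group. Of the family member FABP6, DCLI3 also had 25603 TPM, against 0.76, 13.2 and 37.5 in DCLI1, DCLI2 and DCLI4. In CON1 to CON4 FABP6 had 68963, 26023, 50176 and 1066 TPM. The limma log2 fold change of FABP6 was -7.97 with a standard error of 2.69, and with an adjusted p = 0.692 it did not pass the threshold of 0.05.

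**Figure D2:**
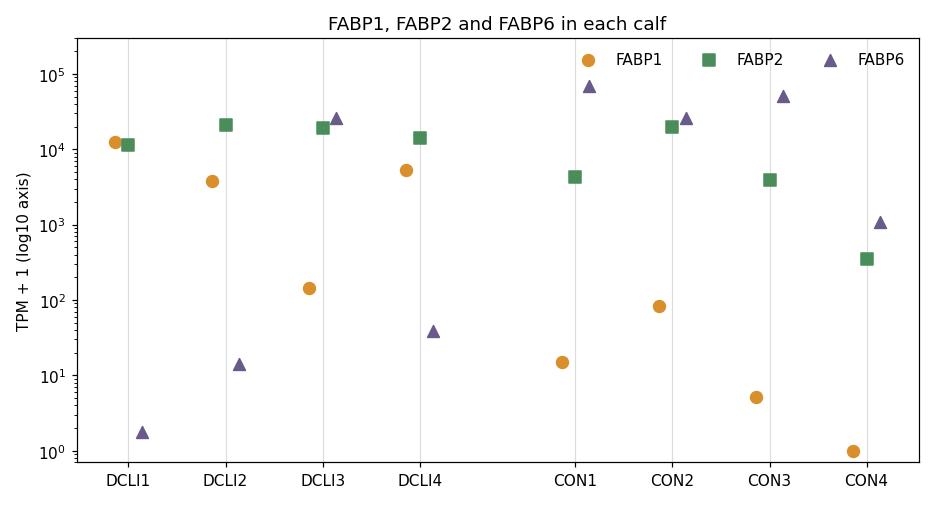
TPM + 1 of FABP1, FABP2 and FABP6 in each calf on a log10 axis, with the 4 DCLI calves left of the 4 CON calves. FABP1 is above FABP6 in DCLI1, DCLI2 and DCLI4, and FABP6 is the highest of the 3 in DCLI3 and in every CON calf.

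Other genes that vary along the small intestine were set beside FABP1 and FABP6, and their part in the levels of both was not tested. All 8 proximal genes of the list were found, but PDX1 and TRPV6 stayed under 1 TPM in every library. The proximal genes summed to 1984 to 7997 TPM in DCLI and 54.4 to 3114 TPM in CON (876 to 3114 without CON4), most of it APOA4, an apolipoprotein of enterocytes. Without APOA4 the other 7 summed to 126 to 180.03 TPM in DCLI and 27.2 to 103 TPM in CON. Of the 6 proximal genes tested, 6 were higher in DCLI, with a median log2 fold change of 1.90 (1.17 without CON4). By limma, 0 passed the adjusted threshold. At an unadjusted p under 0.05 by limma there were 4 higher, beside 4.09% of all genes tested. The 9 distal genes include FABP6, which makes up most of their sum where that sum is high. Without FABP6 the other 8 summed to 348, 601, 948 and 528 TPM in DCLI1 to DCLI4, against 1519, 1106, 2272 and 106 TPM in CON1 to CON4. DCLI3 was thus the highest DCLI calf and CON4 the lowest of all. Of the 8 distal genes tested, FABP6 included, 2 were higher and 6 lower in DCLI, with a median of -0.88 (-1.65 without CON4). Here too 0 passed the adjusted threshold. At an unadjusted p under 0.05 by limma there were 2 lower, beside 2.99% of all genes tested. GATA4, a transcription factor of the proximal small intestine, belongs to the 8 proximal genes summed above. GATA4 had 74.8, 72.2, 40.7 and 62.7 TPM in DCLI1 to DCLI4 and 14.6, 42.9, 1.22 and 0.15 TPM in CON1 to CON4. Its lowest DCLI calf was DCLI3, just under CON2.

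DBI, which binds acyl-CoA esters in the cytosol, was also above all CON calves in every DCLI calf, by a much smaller amount. Its TPM was 1159, 1632, 937 and 946 in DCLI1 to DCLI4, against 852, 751, 651 and 308 in CON1 to CON4. The gap between the lowest DCLI calf, DCLI3, and the highest CON calf, CON1, was small beside the spread within either group. The mean was 1168 ± 325 TPM in DCLI and 640 ± 237 TPM in CON (SD, n = 4 each), and 751 ± 101 TPM in CON without CON4 (SD, n = 3). The log2(TPM + 1) difference was 0.93 (standard error 0.35), 0.61 (standard error 0.23) without CON4 and -0.75 (standard error 0.77) relative to the mean of the enterocyte markers. Per unit of VIL1, the brush border protein villin, DBI overlapped between the groups, at 0.825 to 1.56 in DCLI and 0.628 to 0.875 in CON1 to CON3, with 2.63 in CON4.

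At the membrane, CD36 and SLC27A4 followed one pattern across the calves. CD36, a scavenger receptor that binds long-chain fatty acids, had 197, 201, 130 and 254 TPM in DCLI1 to DCLI4, against 28.0, 323, 16.6 and 2.90 TPM in CON1 to CON4. SLC27A4, the main fatty acid transport protein of enterocytes and an acyl-CoA synthetase for very long chains, had 518, 584, 371 and 648 TPM in DCLI1 to DCLI4, against 172, 689, 40.4 and 4.82 TPM in CON1 to CON4. For both genes CON2 was the highest of all calves, the other CON calves were below every DCLI calf, and the DCLI calves lay close together. The coefficient of variation between calves was 26.0% in DCLI and 166% in CON for CD36, and 22.4% in DCLI and 140% in CON for SLC27A4. The log2(TPM + 1) difference was 2.76 (standard error 1.10) for CD36 and 2.83 (standard error 1.22) for SLC27A4. Without CON4 it was 1.80 (standard error 0.87) for CD36 and 1.61 (standard error 0.78) for SLC27A4, and with array weights 0.34 (standard error 0.80) and 0.54 (standard error 0.74).

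The enterocyte markers did not behave alike in CON1 and CON3, where FABP2, CD36 and SLC27A4 were low. VIL1, chosen as a scale after its values were seen, had 997, 1047, 821 and 1146 TPM in DCLI1 to DCLI4 and 1274, 1196, 744 and 117 TPM in CON1 to CON4, so for VIL1 only CON4 was far from the rest. The brush border hydrolases LCT and MEP1A were low in more CON calves. LCT had 63.7 to 518 TPM in DCLI, against 0.09, 52.8, 0 and 0 TPM in CON1 to CON4, and MEP1A had 86.8 to 217 TPM in DCLI, against 2.19, 104, 1.96 and 1.67 TPM in CON1 to CON4. Per unit of VIL1, SLC27A4 was at 0.520, 0.557, 0.451 and 0.566 in DCLI1 to DCLI4, against 0.135, 0.576, 0.0543 and 0.0413 in CON1 to CON4. CD36 was at 0.158 to 0.222 in DCLI, against 0.270 in CON2 and 0.0220 to 0.0248 in CON1, CON3 and CON4. FABP2 was at 11.4 to 23.3 in DCLI, against 16.6 in CON2 and 2.99 to 5.29 in the other CON calves. For these 3 genes, CON1, CON3 and CON4 remained under every DCLI calf when set against VIL1, and CON2 remained within or above the DCLI range. Relative to the mean of all 12 enterocyte markers the log2 differences were smaller, at 0.60 for FABP2 (standard error 0.89), 1.08 for CD36 (standard error 0.78) and 1.15 for SLC27A4 (standard error 0.76). The part of enterocyte content in these differences was not tested.

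**Figure D3:**
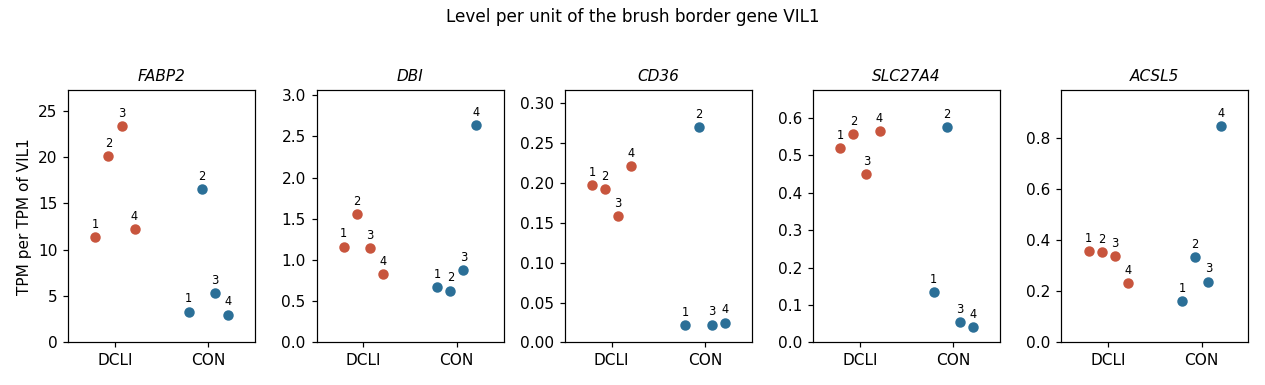
TPM of 5 genes per TPM of VIL1 in each calf, with DCLI left of CON and calf numbers beside the points. For FABP2, CD36 and SLC27A4 the CON calves other than CON2 lie below every DCLI calf, whereas for DBI and ACSL5 CON4 is the highest calf.

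ACSL5, which activates long-chain fatty acids, differed less between the diets than FABP1, FABP2, DBI, CD36 and SLC27A4. Its TPM was 355, 370, 276 and 264 in DCLI1 to DCLI4, against 204, 397, 177 and 98.8 in CON1 to CON4. CON2 was the highest calf, and the other CON calves were below all DCLI calves. The log2(TPM + 1) difference was 0.69 (standard error 0.38), 0.36 (standard error 0.28) without CON4, and 0.0039 (standard error 0.27) with array weights. Set against VIL1, the mean difference on the log2 scale was -0.035 (standard error 0.53), with CON4 then the highest calf, and relative to the enterocyte markers it was -0.99 (standard error 0.75). The table gives 9 transcript rows for ACSL5, with no transcript names. The most abundant row held 38.6% to 57.2% of the ACSL5 TPM in DCLI, against 47.1% in CON1, 50.7% in CON2, 21.99% in CON3 and 4.53% in CON4. In CON4 another row held 37.4%, against 2.58% to 6.94% in DCLI and 4.17% to 13.99% in CON1 to CON3. RSEM divides reads that fit several transcripts between them, so these shares are less certain than the gene totals. For SLC27A4, 1 of its 2 rows held over 99% of the TPM in all calves (99.4% in the lowest). The 26 rows of CD36 shared its TPM, and none of them held more than 19.3% in any DCLI calf. In CON4, where CD36 had only 2.90 TPM, 1 row held 42.1% and another 24.8%.

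FABP3 and FABP5 did not follow the enterocyte members. FABP3, the heart-type protein, had 45.7, 38.6, 82.1 and 33.97 TPM in DCLI1 to DCLI4, against 43.9, 39.2, 36.5 and 59.8 TPM in CON1 to CON4. DCLI3 was the highest calf and CON4 the second, and the groups overlapped throughout. FABP3 differed by 0.10 on the log2(TPM + 1) scale (standard error 0.30), which turned to -0.17 without DCLI3 (standard error 0.24), to -0.63 relative to VIL1 (standard error 1.01) and to -1.58 relative to the enterocyte markers (standard error 0.82). FABP5, the epidermal-type protein, stayed within 20.1 to 33.99 TPM in DCLI and 27.2 to 41.0 TPM in CON, with CON4 the highest calf and DCLI1 the lowest. Its difference was -0.21 (standard error 0.22), and it was -0.93 (standard error 0.95) relative to VIL1 and -1.88 (standard error 0.84) relative to the enterocyte markers. The 6 striated muscle markers summed to only 3.80 to 7.34 TPM in DCLI and 2.85 to 25.0 TPM in CON, and CKM, MYH7 and TNNC1 stayed under 1 TPM in all libraries.

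FABP4, the adipocyte-type protein, was present in some calves and nearly absent in others, in both diet groups. Its TPM was 0.76, 0.93, 45.3 and 0 in DCLI1 to DCLI4, against 0.24, 84.4, 30.8 and 0.25 in CON1 to CON4. DCLI3, CON2 and CON3 were therefore high and the other 5 calves were under 1 TPM, so that FABP4 was the only member under the filter for testing, 4 libraries with 1 TPM or more. With no filter the log2(TPM + 1) difference was -1.18 (standard error 1.73), and leaving out 1 calf at a time it ran between -2.42 and -0.05. ADIPOQ, the fat cell hormone adiponectin, was found in the same calves, at 7.93 TPM in DCLI3, 10.1 TPM in CON2 and 1.33 TPM in CON3, and at most 0.09 TPM in the rest. Among the other adipocyte markers, PLIN4 and CIDEA (at most 1.99 TPM) were also highest in DCLI3, CON2 and CON3. However, CIDEC was highest in DCLI2 (87.7 TPM) and LPL in CON4 (19.2 TPM). PLIN1 was higher in CON4 (3.53 TPM) than in DCLI3 (3.44 TPM) and CON3 (1.90 TPM). The summed TPM of the 8 adipocyte markers, mostly CFD, was 836 to 1506 in DCLI and 123 to 1389 in CON and did not follow FABP4. Their mean log2(TPM + 1), in which CFD weighs less, was 3.51 in DCLI3 and 2.43 to 2.84 in the other DCLI calves, and 3.47 in CON2, 2.84 in CON3 and 2.48 or less in CON1 and CON4. LEP stayed under 1 TPM in all calves. The part of fat cells in the FABP4 level was not tested. In the RefSeq annotation of assembly ARS-UCD2.0, FABP5, PMP2, FABP9, FABP4 and FABP12 lie next to each other. Of these neighbours FABP5 was even across the calves, and FABP12 was listed at 0 in all calves but DCLI3, at 0.31 TPM.

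By the gaps between the means, the order of the levels was clearer in DCLI than in CON. In DCLI the means fell in the order FABP2, FABP1, DBI, SLC27A4, ACSL5, CD36, FABP3, FABP5 and FABP4. From DBI to FABP3 each gene was above the next in 4 of 4 calves, and the gap between the means was larger than the summed SD of both genes. The gap from FABP2 to FABP1 was also larger than the summed SD, although FABP1 was the higher of the pair in DCLI1. The means of FABP1 and DBI did not differ beyond their spread, nor did those of FABP3 and FABP5, nor those of FABP5 and FABP4. Within calves, however, FABP3 was above FABP5 in 4 of 4. In CON the order was FABP2, DBI, SLC27A4, ACSL5, CD36, FABP3, FABP5, FABP4 and FABP1, and for none of these neighbours was the gap larger than the summed SD. That SD is between calves. Within CON calves, FABP2 was above DBI, DBI above SLC27A4, ACSL5 above CD36 and FABP3 above FABP5 in 4 of 4. FABP4 was above FABP1 in 3 of 4 and FABP5 above FABP4 in 2 of 4. SLC27A4 was above ACSL5, and CD36 above FABP3, in only 1 of 4. The 9 genes together held 2.59%, 2.76%, 2.12% and 2.14% of the TPM of DCLI1 to DCLI4, against 0.558%, 2.22%, 0.492% and 0.0865% in CON1 to CON4. CON2 lay within the DCLI range for this share and the other CON calves were below it.

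**Figure D4:**
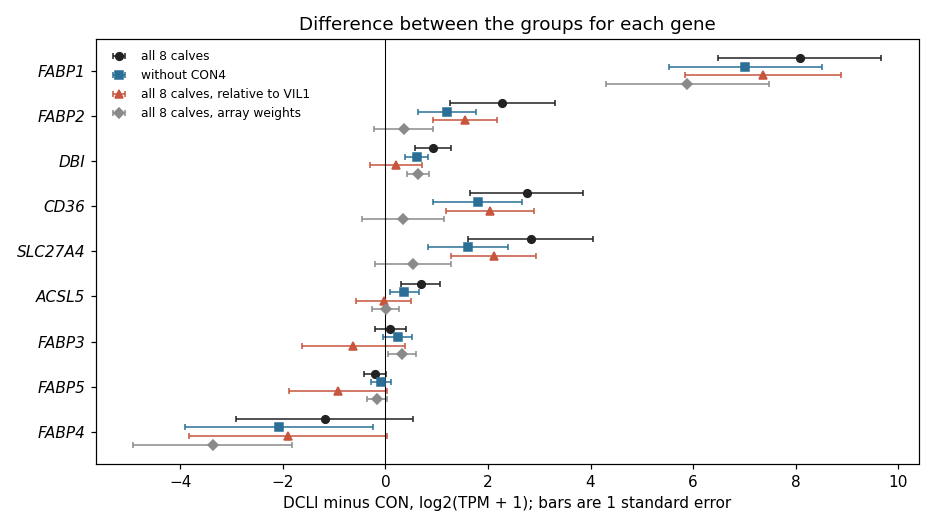
Difference of DCLI minus CON on log2(TPM + 1) for each gene, with bars of 1 standard error, for all 8 calves, without CON4, relative to VIL1 and with array weights. FABP1 is at 8.08 in all 8 calves, and the estimates of FABP1, FABP2, CD36 and SLC27A4 move towards 0 without CON4 and with array weights.

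Of the 8 members above the filter, 7 were higher in DCLI and 1, FABP5, was lower, but relative to the enterocyte markers FABP3, DBI and ACSL5 were lower too. All 12 of those markers were themselves higher in DCLI, with a median log2 fold change of 0.84. Without CON4, 8 of the 12 were higher, with a median of 0.14. With all calves, LCT, MEP1A and TREH had the largest log2 fold changes, at 6.41, 4.27 and 2.76, so these markers weigh heavily in that scaling. The median log2 fold change of the 8 members was 1.6, or 0.90 without CON4. Over all 13228 genes tested, 43.5% were higher in DCLI and the median was -0.06, or 0.01 without CON4. FABP1, FABP2, CD36 and SLC27A4 had a log2 fold change of at least 1, beside 3.57% of all genes tested, and 0 members had one of -1 or less, beside 1.52% of all genes tested. Without CON4 the same 4 genes were at 1 or more, beside 1.56% of all genes tested. Since the members were picked with this contrast in view, nothing is read from these counts. By limma, 0 genes passed an adjusted p under 0.05 in either direction, that is 0% of the genes tested. At an unadjusted p under 0.05 there were 541 higher (4.09%) and 396 lower (2.99%). Without CON2, 9 genes passed the adjusted threshold, and without DCLI1 there was 1. The study used DESeq2 instead of limma on TPM. In these libraries it reported genes past its adjusted threshold and fold change limit in both directions. FABP1, MOGAT1, FAM13A and the proximal gene SLC46A1 were among those it reported as higher. The study also measured FABP1 by qPCR in the same RNA and reported a pattern like that of its RNA-seq.

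The genes with the most similar pattern to a member were sought among all tested genes outside the set, by Pearson's r of log2(TPM + 1) over the 8 libraries, as a description. They were FAM13A for FABP1 (r = 0.988, rho = 0.929), the secreted protein gene AGR3 for FABP2 (r = 0.996, rho = 0.905), AHCYL2 for CD36 (r = 0.986, rho = 0.952), CPS1, a mitochondrial enzyme of ammonia handling, for SLC27A4 (r = 0.992, rho = 0.857), and ANGPTL4, an inhibitor of lipoprotein lipase, for ACSL5 (r = 0.989, rho = 1.00). For DBI the nearest was SPHK2 (r = 0.977, rho = 0.857), for FABP3 COQ2 (r = 0.949, rho = 0.786), for FABP4 OSBPL11 (r = 0.945, rho = 0.881) and for FABP5 E2F6 (r = 0.938, rho = 0.905). All libraries share these 8 calves, and CON4 lies far from the rest in many genes. Over the 7 libraries without CON4, AGR3 was again the nearest to FABP2 (r = 0.985, rho = 0.857), and the nearest to CD36 became ASAH2, a ceramidase of the brush border (r = 0.995, rho = 1.00), while RND2 came nearest to FABP1 (r = 0.990, rho = 0.929).

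Other genes of fatty acid handling were described from 7 lists, with 72 listed names, of which 59 genes reached the filter. Of the 59, 36 were higher and 23 lower in DCLI, beside 43.5% higher among all genes tested. The median over the lists was 0.41 on the log2 scale, or 0.08 without CON4. None passed the adjusted threshold by limma. At an unadjusted p under 0.05 by limma there were 12 higher and 3 lower, beside 4.09% and 2.99% of all genes tested. The groups did not overlap in 2 genes higher in DCLI, beside 2.28% of all genes tested, and in 2 genes lower in DCLI, beside 3.11% of all genes tested.

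Among the other fatty acid transport and acyl-CoA synthetase genes, 6 of 14 were higher and 8 lower, with a median of -0.06. ACSL1, a further long-chain acyl-CoA synthetase, had 183, 149, 87.3 and 112 TPM in DCLI1 to DCLI4, against 42.1, 109, 24.9 and 20.4 TPM in CON1 to CON4. Only CON2 reached into the DCLI range, and the log2 fold change was 1.68 (standard error 0.49, adjusted p = 0.692). SLC27A2, which activates very long-chain fatty acids, averaged 89.1 ± 23.6 TPM in DCLI and 36.5 ± 26.9 TPM in CON (SD, n = 4 each), with a log2 fold change of 1.61 (limma adjusted p = 0.696). MFSD2A, a carrier of lysophospholipids, had a log2 fold change of 1.77, and SLC27A6, present at 0.93 to 3.92 TPM in DCLI and 0.32 to 1.78 TPM in CON, had 1.13, neither past the threshold. ACSL3, ACSL4, ACSL6, SLC27A1, SLC27A3 and SLC27A5 each had a TPM in CON that overlapped that in DCLI.

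Genes of triacylglycerol re-esterification and lipid droplets, lipases included, had a median log2 fold change of 0.69 (0.35 without CON4), with 9 of 13 higher. MOGAT2 (gene ID 407226), the monoacylglycerol acyltransferase of the intestine, had 174, 184, 74.6 and 118 TPM in DCLI1 to DCLI4, against 28.4, 110, 8.71 and 1.40 TPM in CON1 to CON4. This is the order of calves seen for CD36 and SLC27A4 in CON, with CON2 highest and CON4 lowest, and the log2 fold change was 2.98 (standard error 1.00, adjusted p = 0.692 by limma). MOGAT1, another acyltransferase of this step, was the 1 gene of the list that did not overlap with DCLI higher, at 10.4 to 24.2 TPM in DCLI against 1.18 to 6.44 TPM in CON (log2 fold change 1.93, standard error 0.42, limma adjusted p = 0.692). GPAT3 and the lipid droplet protein gene PLIN3 had log2 fold changes of 2.11 and 1.87 and overlapped between the groups. The 2 genes that did not overlap with DCLI lower, named after their values were seen, were AGPAT2, an acyltransferase of phosphatidic acid synthesis, at 5.41 to 9.0 TPM in DCLI against 10.3 to 38.6 TPM in CON, and MGLL, which breaks down monoacylglycerol, at 5.53 to 6.49 TPM in DCLI against 8.49 to 11.1 TPM in CON. Their log2 fold changes were -1.29 (standard error 0.37) and -0.59 (standard error 0.18), both with a limma adjusted p of 0.692.

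In the transcription factor list, 10 of 14 genes were higher, with a median of 0.49, but 6 of 14 and a median of -0.03 without CON4. GATA4, which is also in the proximal list, had the largest log2 fold change, 3.26 (standard error 1.02, adjusted p = 0.692 by limma). HNF4G, a nuclear receptor of the gut epithelium, had 158 to 218 TPM in DCLI against 17.5 to 155 TPM in CON, with no overlap (log2 fold change 1.33, standard error 0.60, limma adjusted p = 0.700). CREB3L3, a membrane-bound factor of lipid metabolism, had a difference of 2.06 on this scale, with overlap between the groups. PPARA, the fatty acid-sensing receptor, lay at 20.0 to 29.4 TPM in DCLI and 5.31 to 28.4 TPM in CON. Of 9 tested PPAR target genes, 7 were higher, with a median of 0.41 (0.25 without CON4). Of these, ANGPTL4 had a log2 fold change of 0.84, the carnitine acyltransferase CPT2 0.81 and HADHA, a subunit of the mitochondrial trifunctional protein, 0.67, none past the threshold.

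Among the other lipid-binding proteins, 3 of 5 genes found reached the filter. RBP2, the retinol-binding member of the family, had 4395, 5558, 1201 and 5720 TPM in DCLI1 to DCLI4, against 600.2, 2539, 222 and 10.04 TPM in CON1 to CON4, with DCLI3 below CON2 (log2 fold change 3.86, standard error 1.43, adjusted p = 0.696 by limma). FABP7, the brain-type protein, stayed at 27.1 TPM or less. Of the 5 other acyl-CoA-binding genes tested, 3 were higher in DCLI, with a median of 0.48 (0.33 without CON4). ACBD5, a peroxisomal acyl-CoA-binding protein, had a log2 fold change of 0.91, SCP2, a sterol carrier protein, 0.90, and ACBD4 0.48, while ACBD6 had -0.23. Of the fatty acid receptors only FFAR3 reached the filter, at 2.10 to 9.03 TPM in DCLI and 2.56 to 13.99 TPM in CON (log2 fold change -0.36, limma adjusted p = 0.869).

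**Figure D5:**
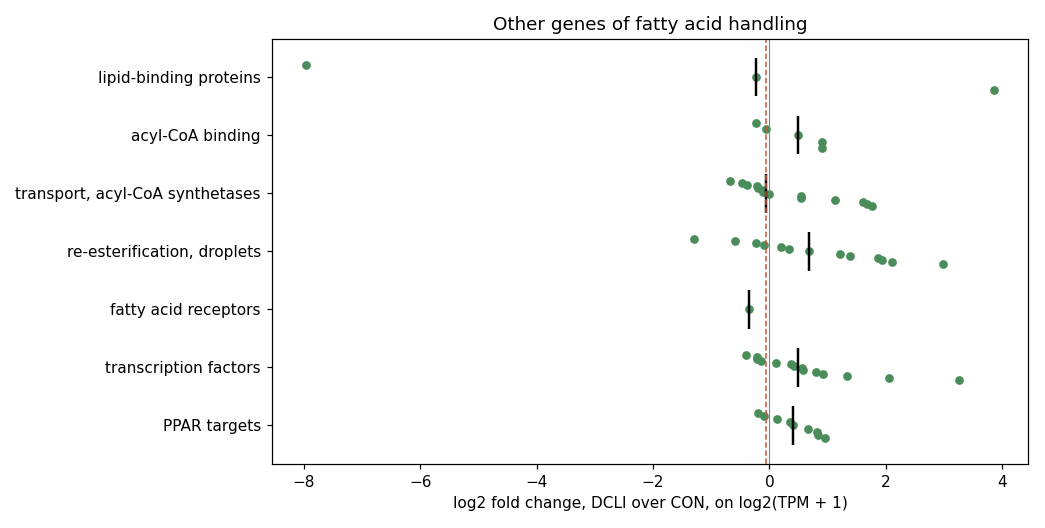
Log2 fold change of DCLI over CON on log2(TPM + 1) for each tested gene of the 7 lists of fatty acid handling. Points are genes, black bars the medians of the lists, and the dashed line the median of all 13228 genes tested, at -0.06.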

How the data were processed

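RNA-seq libraries of 8 jejunal samples, 4 DCLI and 4 CON, were compared. According to the methods of the study, the authors used SOAPnuke for read filtering, HISAT2 for alignment to the cattle assembly and RSEM for quantification. The submitters' notes name DESeq2 1.4.5. The deposited TPM values (50681 transcript rows) were summed here to 17932 genes by gene ID, of which 17696 matched RefSeq. The deposited table also holds estimated counts for 76 rows, which were not used, so no count model was fitted. TPM does not carry depth, though the study reported similar clean read numbers for all libraries. Errors given here come from variation among calves alone.

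Values were compared with limma 3.58.1 in R 4.3.3 (lmFit, eBayes with trend). The scale was log2(TPM + 1), a gene was kept where 4 libraries or more had 1 TPM or more, and p-values were adjusted by Benjamini-Hochberg with a threshold of 0.05. The study's methods used DESeq2 with the same adjusted p threshold and, in addition, a fold change limit that was not applied here. No p-value is given for the 9 members. The members, the pathway and marker lists, and the rule for named genes (FABP6, pathway genes past the threshold, up to 4 tested genes per pathway list by absolute log2 fold change, the 3 nearest genes to each member by Pearson's r, and the 2 most abundant genes of each marker list) were chosen with earlier results of these data known. The limma step was tested on simulated data. Alternatives changed the pseudocount, the filter, the scaling, the library weights, the block and the libraries used. Python 3.11.15 was used for summaries. Levels of single named genes outside this rule (VIL1, ADIPOQ, PPARA and the like) were chosen after their values were seen. Some genes that this rule names are not reported here. No sequences were used here.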

Additional observations from a re-analysis of the deposited data

Results flagged for a closer look

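In 70 groups of 4 calves, covering the 9 members and the named genes of the other lists, the highest or lowest calf was set against the range of its group by Dixon's ratio at its usual limit. For independent, normally distributed values chance flags about 1 in 20 groups. TPM can be strongly skewed and the genes share the same calves, so this rate may not hold here. The limit was exceeded in 6 groups. FABP4 in DCLI3 was at 45.3 TPM, far above the other DCLI calves (ratio 0.980). In the same calf FABP6 was at 25603 TPM (ratio 0.999), and SLC27A6 at 0.93 TPM was far below the other DCLI calves (ratio 0.880). CD36 in CON2, at 323 TPM, was far above the other CON calves (ratio 0.922). FABP7 was far above the rest of its group in DCLI2, at 15.9 TPM (ratio 0.883), and in CON3, at 27.1 TPM (ratio 0.855).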

How the results depend on the processing

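The count of genes past the adjusted threshold by limma was 0 under each alternative of scaling, pseudocount, filter, weights and block, and it ran between 0 and 9 when 1 library was left out, with 9 without CON2 and 1 without DCLI1. No gene of the 7 pathway lists passed under any alternative run. The replicate numbers do not pair the calves: same-numbered libraries deviated from their group means with r of -0.198 to 0.0507, and 1 of 8 libraries was closest to its own number. With the replicate block, the count at an unadjusted p under 0.05 was 845, against 937 without it, and the count past the adjusted threshold was 0. Of the alternatives for the 9 members, 148 moved the difference by less than the SD between calves, 7 by more and 6 turned its sign. The 148 include the changes of filter and the replicate block, which could not move the difference. They also include FABP2 at 0.60 and CD36 at 1.08 relative to the enterocyte markers, so this count is no measure of stability. FABP3 turned to -0.17 without DCLI3, to -1.58 relative to the enterocyte markers and to -0.63 relative to VIL1. Relative to the enterocyte markers, DBI turned to -0.75 and ACSL5 to -0.99, and relative to VIL1 ACSL5 turned to -0.035. The scaling to VIL1 was chosen after seeing the data. Leaving out 1 library, FABP1 ran between 7.02 and 9.43, FABP2 between 1.2 and 3.14, CD36 between 1.80 and 3.93, SLC27A4 between 1.61 and 3.91, and FABP3 between -0.17 and 0.25. Of the other genes, FABP7 ran between -0.81 and 0.47 when 1 library was left out and turned positive without CON3 (0.47) and DCLI4 (0.015), ACBD6 ran between -0.37 and 0.013, turning positive without CON4, and FFAR3 to 0.27 with array weights. The cause of these turns was not tested. With 4 calves per group and no read counts, small differences cannot be resolved.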
